A study of Mus musculus with 14 samples.

Results

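Follicular helper T cells (Tfh) of a lupus-prone mouse strain were compared with those of its control strain across all genes. The comparison rests on 7 of the 14 libraries of the study: 4 from C57BL/6J (B6) mice and 3 from triple congenic (TC) mice, strain B6.NZM-Sle1/Sle2/Sle3. All were splenic cells of 8-month-old females, and both groups share the B6 background and received no treatment that the labels name. Each library came from a single mouse. In the main fit, p-values of single genes rest on the spread between mice within groups, pooled over all 14 libraries, naive cells included. That fit treats the libraries of a mouse as independent. The sorting gate for Tfh took cells with CD44 and PD-1 and with little or no CD162. It does not separate Tfh from follicular regulatory T cells. The other 7 libraries hold naive CD44-negative CD4 T cells (Tn) of the same mice. They add to the estimate of spread and are otherwise used below only to show where Tfh differ. Throughout, values are listed for B6 mice 1, 2, 3 and 4 and then for TC mice 1, 2 and 4, the numbers the labels carry.

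Tfh are CD4 T cells that enter B cell follicles and help B cells form germinal centres, switch class and mature in affinity. The repressor BCL6 sets their programme, the chemokine receptor CXCR5 brings them to the follicle, and CD40 ligand, IL-21 and IL-4 carry their help to B cells. TC mice carry intervals from the lupus-prone NZM2410 strain on chromosomes 1, 4 and 7, and they are known for autoantibodies, an enlarged Tfh population and T cells with high glucose and oxygen use. As a model the strain therefore joins an inherited sequence difference and a disease, and these cannot be told apart here.

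Total counts of the 7 Tfh libraries ran from 15162309 to 19282023. Levels are counts per 1e6 counts (CPM) on library sizes scaled by TMM, which is edgeR's correction for RNA composition. A count of 3 corresponds to between 0.156 and 0.198 CPM before that scaling, and values below this are near the counting limit. On the first principal component, which held 64.9% of the variance of the Tfh libraries, all 4 B6 libraries lay on the negative and all 3 TC libraries on the positive side, and the second component held 10.4%. Cd4 stood at 1571 to 2034 CPM across the Tfh libraries, and Cd8a and the NK receptor gene Ncr1 had no count in any of them. Summed markers of myeloid and dendritic cells took 0.0332 to 0.0385% of counts in B6 and 0.0229 to 0.0247% in TC, and those of B cells 0.184 to 0.223% and 0.166 to 0.245%. The myeloid sum includes Ctss, which T cells also express, at means of 276 CPM in B6 and 178 CPM in TC, and Cst3, at 57.2 and 44.4 CPM. The defining myeloid genes Lyz2 and Csf1r had means of 5.03 and 0.56 CPM in B6 and 0.077 and 0.094 CPM in TC. Summed Treg and follicular regulatory markers took 0.419 to 0.494% and 0.475 to 0.525% (exact permutation p = 0.171, two-sided, 3 against 4 mice, where the smallest possible p is 0.0571).

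Of 26683 genes in the table, 13427 had enough counts to be tested, and 6669 (49.7%) were called different between TC and B6 Tfh by edgeR's quasi-likelihood test at a Benjamini-Hochberg adjusted p below 0.05. They divide into 3249 genes higher in TC (24.2%) and 3420 lower (25.5%). Most differences were small. The median absolute log2 fold change was 0.27, and 90% of genes lay between -0.71 and 1.02. Only 904 genes (6.73%) were both called and more than 2-fold apart, and of these 638 were higher and 266 lower in TC. In 6741 genes (50.2%) every library of a strain lay above every library of the other. A count of called members in a gene group is therefore read below against these shares of all genes. When a fold above 1.5 was tested instead, 577 genes were called, 412 higher and 165 lower. With each library left out in turn, 5860 to 6549 genes were called.

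The defining genes of the Tfh programme moved in both directions. Of 34 genes of Tfh identity, 9 rose and 7 fell, with a median log2 fold change of -0.01 against -0.02 over all genes, and 11 had libraries without overlap. With an offset for transcript length in each library 8 rose and 4 fell. Bcl6 stood at 223, 186, 229 and 245 CPM in B6 and 321, 243 and 301 CPM in TC, a rise (log2 fold change 0.38, SE 0.10, adjusted p = 0.00729) in which TC mouse 2 lay within the B6 range. Cxcr5 stood at 621, 641, 607 and 618 CPM in B6 and 405, 406 and 434 CPM in TC, lower in every TC mouse than in any B6 mouse (log2 fold change -0.58, SE 0.13, adjusted p = 0.00187). The follicle receptor was thus lower where the lineage repressor was higher. Pdcd1, which encodes the PD-1 protein used in the gate, stood at 694, 590, 740 and 618 CPM in B6 and 541, 373 and 500 CPM in TC and was also lower without overlap (log2 fold change -0.49, SE 0.14, adjusted p = 0.0133). Without TC mouse 2, which had the lowest value, its call was lost (log2 fold change -0.33, adjusted p = 0.0629), and an offset for transcript length also ended it (-0.27, adjusted p = 0.153). In bulk RNA, fewer cells that express a gene and less RNA of it per cell cannot be told apart.

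Slamf6, a self-binding receptor of the SLAM family on T and B cells, rose from 684, 678, 782 and 758 CPM in B6 to 964, 953 and 1164 CPM in TC (log2 fold change 0.50, SE 0.07, adjusted p = 1.96e-05). Its intracellular adaptor gene Sh2d1a, which encodes SAP and is needed for stable T cell to B cell contact, fell from 152, 184, 163 and 173 CPM to 117, 122 and 126 CPM (log2 fold change -0.47, SE 0.06, adjusted p = 8.3e-06). Both sets of libraries were apart, in opposite directions. Cebpa, a transcription factor gene of the identity list, fell (log2 fold change -0.74, SE 0.11, adjusted p = 0.0001), as did Tnfrsf18, which encodes the costimulatory receptor GITR (log2 fold change -0.71, SE 0.11, adjusted p = 0.000122). Maf, a driver of IL-21 and IL-4 expression, stood at 771, 753, 851 and 824 CPM in B6 and 780, 755 and 843 CPM in TC, and its groups overlapped (log2 fold change -0.01, SE 0.25, adjusted p = 0.972). Tox2 (0.13, adjusted p = 0.183), Icos (-0.09, adjusted p = 0.458) and Tcf7 (-0.10, adjusted p = 0.275) were not called either. ICOS is the costimulator that sustains Tfh, and TCF-1, the product of Tcf7, is an early factor of the lineage.

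**Figure D1:**
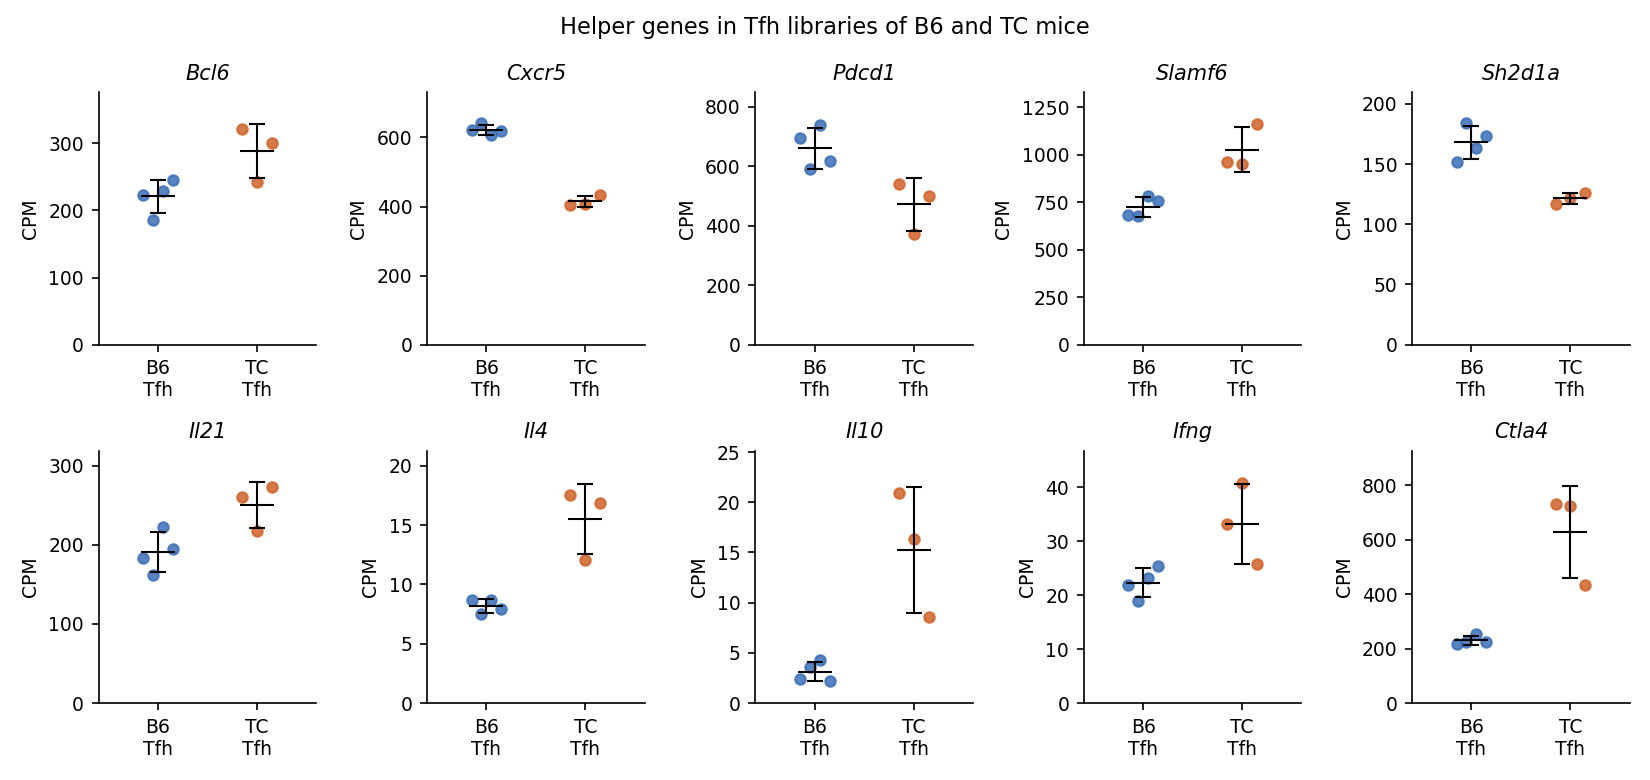
Levels of 10 helper genes in B6 and TC Tfh, in CPM on linear axes, each with its own scale. Points are single mice and bars are means with SD (4 B6, 3 TC). Cxcr5, Pdcd1 and Sh2d1a lie lower in every TC mouse, and Slamf6, Il4, Il10, Ifng and Ctla4 lie higher in every TC mouse, while Bcl6 and Il21 overlap.

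Of 25 helper cytokine genes tested, 5 rose and 4 fell, and Il21 and Il4 were among those that rose. Il21 stood at 183, 162, 223 and 195 CPM in B6 and 260, 218 and 273 CPM in TC (log2 fold change 0.39, SE 0.10, adjusted p = 0.00635), with TC mouse 2 inside the B6 range. Il4, which directs class switching to IgG1 and IgE, stood at 8.66, 7.49, 8.67 and 7.9 CPM in B6 and 17.5, 12.1 and 16.9 CPM in TC, higher in every TC mouse (log2 fold change 0.92, SE 0.16, adjusted p = 0.00031). The largest difference of the list was in Il10, at 2.43, 3.59, 4.28 and 2.24 CPM in B6 and 20.9, 16.3 and 8.55 CPM in TC (log2 fold change 2.28, SE 0.33, adjusted p = 7.47e-05). All 3 TC mice were above the highest B6 mouse, and TC mouse 4 was the lowest of them. Ifng stood at 21.8, 18.9, 23.1 and 25.5 CPM in B6 and 33.2, 40.7 and 25.8 CPM in TC (log2 fold change 0.57, SE 0.16, adjusted p = 0.00951), and TC mouse 4 was barely above the highest B6 mouse. Its call was lost without TC mouse 2 (log2 fold change 0.42, adjusted p = 0.0553). Il2 was below 2 CPM in both strains, at 0.911, 1.4, 0.522 and 1.66 CPM in B6 and 1.08, 1.39 and 0.968 CPM in TC. Among the genes that fell were Ltb, a subunit of the lymphotoxin that organises lymphoid tissue (log2 fold change -0.44, SE 0.07, adjusted p = 4.1e-05), and Mif (log2 fold change -0.52, SE 0.10, adjusted p = 0.000386), whose call was lost with an offset for exon length in each library, the length offset in what follows (-0.17, adjusted p = 0.0933). The 4 falls became 2 without B6 mouse 4, without TC mouse 1 or with the length offset, with which 7 rose. Cd40lg stood at 97.9, 115, 121 and 122 CPM in B6 and 140, 142 and 122 CPM in TC and was not called (log2 fold change 0.24, SE 0.11, adjusted p = 0.0956), whereas it was with the length offset (0.54, adjusted p = 0.0026).

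Of 17 costimulatory receptor genes tested 10 fell and none rose (median log2 fold change -0.28). With the length offset 8 fell and 2 rose, and 1 rose in several other alternatives, DESeq2 and voom among them. Tnfrsf4, which encodes OX40, stood at 307, 294, 304 and 239 CPM in B6 and 197, 181 and 174 CPM in TC (log2 fold change -0.63, SE 0.09, adjusted p = 5.89e-05). Cd6, whose product binds ALCAM, stood at 720, 843, 729 and 863 CPM in B6 and 528, 563 and 536 CPM in TC (log2 fold change -0.54, SE 0.07, adjusted p = 8.81e-06). The tetraspanin genes Cd82 (log2 fold change -0.44, SE 0.07, adjusted p = 8.74e-05) and Cd9 (log2 fold change -0.43, SE 0.05, adjusted p = 2.32e-06) fell too. In each of these 4 genes every TC mouse was below every B6 mouse. The main costimulator of naive cells, Cd28, stood at 589, 686, 706 and 732 CPM in B6 and 662, 643 and 645 CPM in TC and was not called.

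Of 20 inhibitory receptor genes, 4 rose and 2 fell. Ctla4, whose product takes CD80 and CD86 from antigen-presenting cells, rose the most, from 219, 224, 254 and 224 CPM in B6 to 732, 723 and 434 CPM in TC (log2 fold change 1.45, SE 0.31, adjusted p = 0.00298). All TC mice were higher, and TC mouse 4 was well below the other 2. Cd274, the gene of the PD-1 ligand PD-L1, stood at 102, 92.4, 101 and 95.3 CPM in B6 and 144, 139 and 125 CPM in TC (log2 fold change 0.48, SE 0.05, adjusted p = 3.39e-06). Btla stood at 358, 319, 345 and 329 CPM in B6 and 388, 355 and 445 CPM in TC, with overlap (log2 fold change 0.23, SE 0.06, adjusted p = 0.00726), and lost its call without TC mouse 4 (log2 fold change 0.15, adjusted p = 0.0616). The rises numbered 2 without that mouse. Entpd1, which encodes the ATP-degrading ectoenzyme CD39, fell (log2 fold change -0.47, SE 0.12, adjusted p = 0.00347). Tigit was lower in each TC mouse, at 374, 348, 392 and 312 CPM in B6 and 270, 255 and 277 CPM in TC, but missed the threshold (log2 fold change -0.42, SE 0.17, adjusted p = 0.0573). It was called by voom (log2 fold change -0.41, adjusted p = 0.0126) and when only the Tfh libraries were fitted (log2 fold change -0.40, adjusted p = 0.00176). Lag3 overlapped (log2 fold change -0.19, SE 0.28, adjusted p = 0.599). The falls were 4 by DESeq2, by voom and without B6 mouse 3, and 5 without TC mouse 2.

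The regulatory list split evenly, with 5 rises and 5 falls among 21 genes. The lineage factor of regulatory T cells, Foxp3, stood at 344, 342, 279 and 280 CPM in B6 and 320, 392 and 258 CPM in TC, and the strains overlapped (log2 fold change 0.05, SE 0.14, adjusted p = 0.772). Ikzf2, which encodes Helios, stood at 911, 626, 830 and 767 CPM in B6 and 1031, 1139 and 1075 CPM in TC and rose (log2 fold change 0.47, SE 0.12, adjusted p = 0.006). Rgs1, a brake on chemokine receptor signals, rose from 57.7, 61.7, 58.9 and 63.3 CPM to 213, 253 and 129 CPM (log2 fold change 1.71, SE 0.26, adjusted p = 0.000323). Itgae, the gene of the integrin CD103, rose as well (log2 fold change 0.78, SE 0.16, adjusted p = 0.00165). Il1r2, the decoy receptor of IL-1 that marks follicular regulatory cells, fell from 152, 103, 158 and 101 CPM to 74, 48.9 and 60.7 CPM (log2 fold change -1.07, SE 0.21, adjusted p = 0.00131). Whether the share of regulatory cells differed inside the gate was not tested beyond these transcripts and the summed marker share given above.

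The Th1 and cytotoxic list fell more than it rose, with 9 falls and 2 rises among 24 genes and a median of -0.50. Tbx21, which encodes the Th1 factor T-bet, stood at 28.5, 30.6, 31.6 and 26.5 CPM in B6 and 16.6, 25.1 and 20.7 CPM in TC, lower in every TC mouse (log2 fold change -0.50, SE 0.12, adjusted p = 0.00328), although Ifng rose. The cytotoxic granule gene Nkg7 stood at 12.2, 23.3, 14.2 and 24.2 CPM in B6 and 4.79, 5.05 and 2.69 CPM in TC (log2 fold change -2.15, SE 0.48, adjusted p = 0.00313). Il12rb1, a chain of the IL-12 receptor, fell (log2 fold change -0.42, SE 0.10, adjusted p = 0.0017). Hopx fell too (log2 fold change -0.60, SE 0.12, adjusted p = 0.000673), though not with offsets for length and GC (log2 fold change -0.28, adjusted p = 0.0565). The chemokine receptor gene Cxcr3 stood at 236, 303, 254 and 273 CPM in B6 and 167, 172 and 146 CPM in TC, lower without overlap (log2 fold change -0.72, SE 0.18, adjusted p = 0.00548), but DESeq2 did not call it (log2 fold change -0.72, adjusted p = 0.143). Gzma went the other way, from 0.557, 1.3, 1.36 and 1.14 CPM to 7.36, 7.07 and 5.05 CPM (log2 fold change 2.57, SE 0.23, adjusted p = 1.91e-07). Without B6 mouse 2 the falls numbered 5, and with the length offset also 5. That B6 mouse had the highest Trdc, the constant gene of the gamma delta receptor, at 2.38, 37.8, 4.34 and 3.07 CPM in the B6 mice, against 2.74, 6.88 and 2.8 CPM in TC. The part of such cells in the Th1 counts was not tested.

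Of 7 Th2 genes 3 rose: Il4, Gata3 (log2 fold change 0.38, SE 0.06, adjusted p = 0.000124), the lineage factor, and Il17rb, a chain of the IL-25 receptor (log2 fold change 1.27, SE 0.27, adjusted p = 0.0011). The chemokine receptor gene Ccr4 fell, at 67.9, 66, 61.4 and 65 CPM in B6 and 40.2, 40.2 and 39.3 CPM in TC (log2 fold change -0.71, SE 0.13, adjusted p = 0.000565). Among 5 Th17 genes only Rora was called, and it rose from 82.1, 59.6, 73 and 70.7 CPM to 118, 119 and 101 CPM (log2 fold change 0.65, SE 0.09, adjusted p = 3.06e-05). Of 30 genes linked to naive or quiescent T cells, 7 rose and 5 fell. Klf7 was higher (log2 fold change 0.68, SE 0.08, adjusted p = 5.22e-06). Ccr7, the lymph node homing receptor that Tfh reduce, fell from 76.4, 111, 102 and 95.2 CPM to 56.9, 61.6 and 58.5 CPM (log2 fold change -0.70, SE 0.11, adjusted p = 7.04e-05). Nsg2 (log2 fold change -0.88, SE 0.10, adjusted p = 3.73e-06) and Slfn2 (log2 fold change -0.42, SE 0.07, adjusted p = 0.000202) fell too, the latter not with offsets for length and GC (log2 fold change -0.11, adjusted p = 0.112).

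Homing receptor genes moved only downwards among calls: 12 of 26 fell and none rose (median log2 fold change -0.26). Besides Cxcr5, Ccr4 and Ccr7, Itgb1, the beta chain of integrins that bind fibronectin and VCAM-1, fell from 1146, 1089, 1199 and 1113 CPM to 708, 787 and 761 CPM (log2 fold change -0.60, SE 0.06, adjusted p = 4.35e-07). S1pr4 fell (log2 fold change -0.36, SE 0.07, adjusted p = 0.000389). Ccr2 stood at 3.85, 5.29, 4.6 and 5.82 CPM in B6 and 2.85, 1.33 and 1.08 CPM in TC (log2 fold change -1.48, SE 0.43, adjusted p = 0.0106) and lost its call without TC mouse 4 (log2 fold change -1.20, adjusted p = 0.0564). Receptors that position Tfh inside the germinal centre or its border were not called, namely Cxcr4 (-0.06, adjusted p = 0.899), S1pr2 (0.08, adjusted p = 0.655) and Gpr183 (-0.19, adjusted p = 0.257). Selplg, whose product CD162 was used in the gate, stood at 119, 172, 120 and 156 CPM in B6 and 119, 121 and 95.1 CPM in TC, with overlap (log2 fold change -0.35, SE 0.12, adjusted p = 0.0325). Its call was lost without B6 mouse 2, B6 mouse 4 or TC mouse 4 (log2 fold change -0.28 to -0.23), and when only the Tfh libraries were fitted (log2 fold change -0.33, adjusted p = 0.124).

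Cytokine receptor genes fell in 10 and rose in 3 of 30, and 7 rose without B6 mouse 1. Il2rg, the shared chain of the receptors for IL-2, IL-4, IL-7 and IL-21, stood at 315, 363, 319 and 330 CPM in B6 and 259, 286 and 253 CPM in TC (log2 fold change -0.32, SE 0.06, adjusted p = 0.000408). Its call was lost with offsets for both length and GC (log2 fold change -0.11, adjusted p = 0.112). Jak3, the kinase bound to that chain, stood at 459, 427, 476 and 465 CPM in B6 and 946, 917 and 978 CPM in TC, higher in every TC mouse (log2 fold change 1.05, SE 0.06, adjusted p = 3.99e-10). Tyk2 rose slightly (log2 fold change 0.20, SE 0.05, adjusted p = 0.00183), a call lost with offsets for length and GC (log2 fold change 0.05, adjusted p = 0.405). Stat5a fell (log2 fold change -0.24, SE 0.06, adjusted p = 0.00257). Il15ra rose (log2 fold change 0.56, SE 0.09, adjusted p = 7.02e-05), and Tgfbr3, the co-receptor of TGF-beta, fell (log2 fold change -0.61, SE 0.10, adjusted p = 9.79e-05). The JAK, STAT and SOCS list held 3 rises and 5 falls among 22 genes, and the falls numbered 1 to 3 when B6 mouse 1, 3 or 4 or TC mouse 1 or 2 was left out.

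Antigen receptor signalling genes were about as often called as all genes, 8 higher and 11 lower of 39, or 7 lower without TC mouse 4. With the length offset 8 were higher and 16 lower. Cd3d, a chain of the CD3 complex, stood at 503, 600, 562 and 530 CPM in B6 and 405, 354 and 377 CPM in TC (log2 fold change -0.54, SE 0.07, adjusted p = 1.98e-05). The diacylglycerol kinases, which remove the second messenger that activates RAS in T cells, were higher. Dgkz stood at 965, 982, 973 and 1120 CPM in B6 and 1351, 1387 and 1478 CPM in TC (log2 fold change 0.48, SE 0.06, adjusted p = 5.57e-06). Dgka rose from 769, 968, 875 and 983 CPM to 1151, 1246 and 1156 CPM (log2 fold change 0.40, SE 0.08, adjusted p = 0.000394). In both, no TC mouse overlapped a B6 mouse.

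Immediate early genes, which cells transcribe within minutes of a stimulus and which encode the AP-1 factors and their regulators, were mostly higher in TC. Of 32 tested, 18 rose and 1 fell, the median log2 fold change was 0.50, and 12 were more than 2-fold apart. Without 1 library at a time 16 to 22 rose. 5 of them are shown with the 250 bases that precede their start site, since the AP-1 genes and Dusp1 rose together. Each is written 5′ to 3′ in the direction of transcription, from RefSeq with build GRCm38.p6. Capitals mark TGACG, the core of the cAMP response element, and TGACNTCA, searched on both strands. The latter pattern covers the full element TGACGTCA and also variants without the core.
Fos: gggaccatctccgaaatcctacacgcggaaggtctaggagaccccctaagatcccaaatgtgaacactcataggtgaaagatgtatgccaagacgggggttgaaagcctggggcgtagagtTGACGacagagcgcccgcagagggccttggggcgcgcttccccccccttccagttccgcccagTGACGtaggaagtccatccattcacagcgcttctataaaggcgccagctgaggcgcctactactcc
Fosb: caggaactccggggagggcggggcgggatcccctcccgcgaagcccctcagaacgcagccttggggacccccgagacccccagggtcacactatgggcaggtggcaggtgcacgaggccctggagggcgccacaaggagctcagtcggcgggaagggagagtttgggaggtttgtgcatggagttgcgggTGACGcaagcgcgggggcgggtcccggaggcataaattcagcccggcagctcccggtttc
Jun: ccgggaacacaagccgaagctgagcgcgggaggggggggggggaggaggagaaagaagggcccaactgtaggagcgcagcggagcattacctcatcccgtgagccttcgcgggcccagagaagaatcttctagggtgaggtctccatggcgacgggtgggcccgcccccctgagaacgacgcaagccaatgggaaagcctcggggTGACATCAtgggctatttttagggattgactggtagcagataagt
Junb: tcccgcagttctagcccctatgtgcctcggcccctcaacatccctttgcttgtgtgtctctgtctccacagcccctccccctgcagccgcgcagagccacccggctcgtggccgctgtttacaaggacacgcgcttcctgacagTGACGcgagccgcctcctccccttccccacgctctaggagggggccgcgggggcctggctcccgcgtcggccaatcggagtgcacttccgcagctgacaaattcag
Dusp1: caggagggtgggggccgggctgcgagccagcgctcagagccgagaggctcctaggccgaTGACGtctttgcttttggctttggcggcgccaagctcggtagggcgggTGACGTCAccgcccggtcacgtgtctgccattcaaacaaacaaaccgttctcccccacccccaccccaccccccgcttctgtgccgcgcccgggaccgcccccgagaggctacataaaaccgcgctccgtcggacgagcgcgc
These windows are chr12:85473640-85473889, plus strand for Fos, chr7:19310046-19310295, minus strand for Fosb, chr4:95052223-95052472, minus strand for Jun, chr8:84978749-84978998, minus strand for Junb and chr17:26508473-26508722, minus strand for Dusp1. TGACG begins 129 and 66 bases before the start in Fos, 60 in Fosb, 106 in Junb and 191, 143 and 140 in Dusp1, where the sites at 143 and 140 are part of the full element TGACGTCA. Jun holds only TGACATCA, a match to TGACNTCA without the core, 45 bases before its start. Of 32851 promoter windows of this length, 17.8% hold TGACG and 7.49% hold TGACNTCA, and a match to TGACNTCA can itself contain the core. Of the 18 immediate early genes that rose, 15 were matched to at least 1 window, and in any window of the gene 8 hold TGACG and 4 TGACNTCA. Among all 26 matched immediate early genes tested, 12 hold TGACG and 5 TGACNTCA. These counts are by gene and the shares above by window, so they cannot be compared directly. A match is a string of letters, not a shown binding site.

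Fos stood at 6.83, 8.24, 8.31 and 8.89 CPM in B6 and 649, 916 and 262 CPM in TC, a rise of 75.5-fold (log2 fold change 6.24, SE 0.68, adjusted p = 3.77e-05). Jun stood at 3.39, 3.19, 3.55 and 4.06 CPM in B6 and 264, 428 and 160 CPM in TC, a rise of 79.9-fold (log2 fold change 6.32, SE 0.48, adjusted p = 2.85e-06). Fosb stood at 4.25, 4.59, 4.23 and 4.47 CPM in B6 and 214, 484 and 67.8 CPM in TC (log2 fold change 5.86, SE 1.05, adjusted p = 0.000997). In all 3 genes the B6 mice were close to each other, every TC mouse was far above them, and TC mouse 2 was the highest and TC mouse 4 the lowest. Junb stood at 268, 232, 264 and 220 CPM in B6 and 1044, 1092 and 591 CPM in TC (log2 fold change 1.89, SE 0.26, adjusted p = 0.000156). Dusp1, which encodes a phosphatase that switches off MAP kinases, stood at 53.5, 56.1, 62.6 and 48.8 CPM in B6 and 742, 763 and 399 CPM in TC (log2 fold change 3.52, SE 0.35, adjusted p = 1.96e-05). TC mouse 4 was again the lowest TC mouse in both. Nfkbiz, a regulator of NF-kappaB target genes, rose with less spread, at 85, 80.3, 89.5 and 92.5 CPM in B6 and 214, 221 and 171 CPM in TC (log2 fold change 1.22, SE 0.12, adjusted p = 3.45e-06). Tnfaip3, whose product A20 restrains NF-kappaB, stood at 190, 185, 216 and 174 CPM in B6 and 725, 713 and 320 CPM in TC (log2 fold change 1.62, SE 0.35, adjusted p = 0.0029). Both kept every TC mouse above every B6 mouse. Zfp36l1, which marks AU-rich mRNA for decay, rose (log2 fold change 0.64, SE 0.08, adjusted p = 9.28e-06).

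The heat shock gene Hspa1a stood at 0.101, 0.2, 0.366 and 0.624 CPM in B6 and 2, 7.13 and 8.49 CPM in TC and its near-identical copy Hspa1b at 0.506, 1.65, 1.99 and 2.6 CPM in B6 and 6.28, 15.8 and 23.9 CPM in TC, so that reads may have been split between them. Both rose (log2 fold change 4.17, SE 0.65, adjusted p = 0.000174 and log2 fold change 3.19, SE 0.62, adjusted p = 0.00139), and here TC mouse 1 was the lowest of the TC mice. Plk2 rose from 0.658, 0.899, 0.679 and 0.884 CPM to 11.8, 7.95 and 2.1 CPM (log2 fold change 3.20, SE 0.56, adjusted p = 0.000453). The orphan receptor genes that antigen receptor signals induce did not follow as a group. Nr4a1 stood at 99.6, 86.3, 92.5 and 98.8 CPM in B6 and 133, 146 and 106 CPM in TC (log2 fold change 0.44, SE 0.12, adjusted p = 0.00778). Nr4a2 rose from 10.2, 6.79, 9.87 and 7.28 CPM to 33.7, 39.3 and 13.9 CPM (log2 fold change 1.76, SE 0.30, adjusted p = 0.000417). Nr4a3 overlapped (log2 fold change -0.03, SE 0.13, adjusted p = 0.852). Egr2, which NFAT induces in helper and anergic T cells, was at 160, 151, 164 and 168 CPM in B6 and 139, 159 and 144 CPM in TC and was not called (log2 fold change -0.12, SE 0.07, adjusted p = 0.172). Egr3 was not called either (0.19, adjusted p = 0.167), although every TC mouse was above every B6 mouse. It was called when only the Tfh libraries were fitted (log2 fold change 0.21, adjusted p = 0.044) and with the replicate number as a block (log2 fold change 0.25, adjusted p = 0.0461). Egr1 was called at a small size (log2 fold change 0.17, SE 0.07, adjusted p = 0.0488). Leaving out B6 mouse 1, 2 or 4, or TC mouse 1 or 2, ended that call, with log2 fold changes from 0.09 to 0.20. Cd69, an early surface marker of activation, stood at 83, 102, 103 and 92.5 CPM in B6 and 189, 178 and 95.5 CPM in TC, with TC mouse 4 inside the B6 range (log2 fold change 0.70, SE 0.32, adjusted p = 0.0949). Without that mouse it was called (log2 fold change 0.97, adjusted p = 0.0291), and also when only the Tfh libraries were fitted (log2 fold change 0.71, adjusted p = 0.0479). Ier5 was the 1 gene of the list that fell (log2 fold change -0.25, SE 0.07, adjusted p = 0.00989). Its call was lost without TC mouse 1 (log2 fold change -0.21, adjusted p = 0.064) or TC mouse 4 (log2 fold change -0.19, adjusted p = 0.0771).

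**Figure D2:**
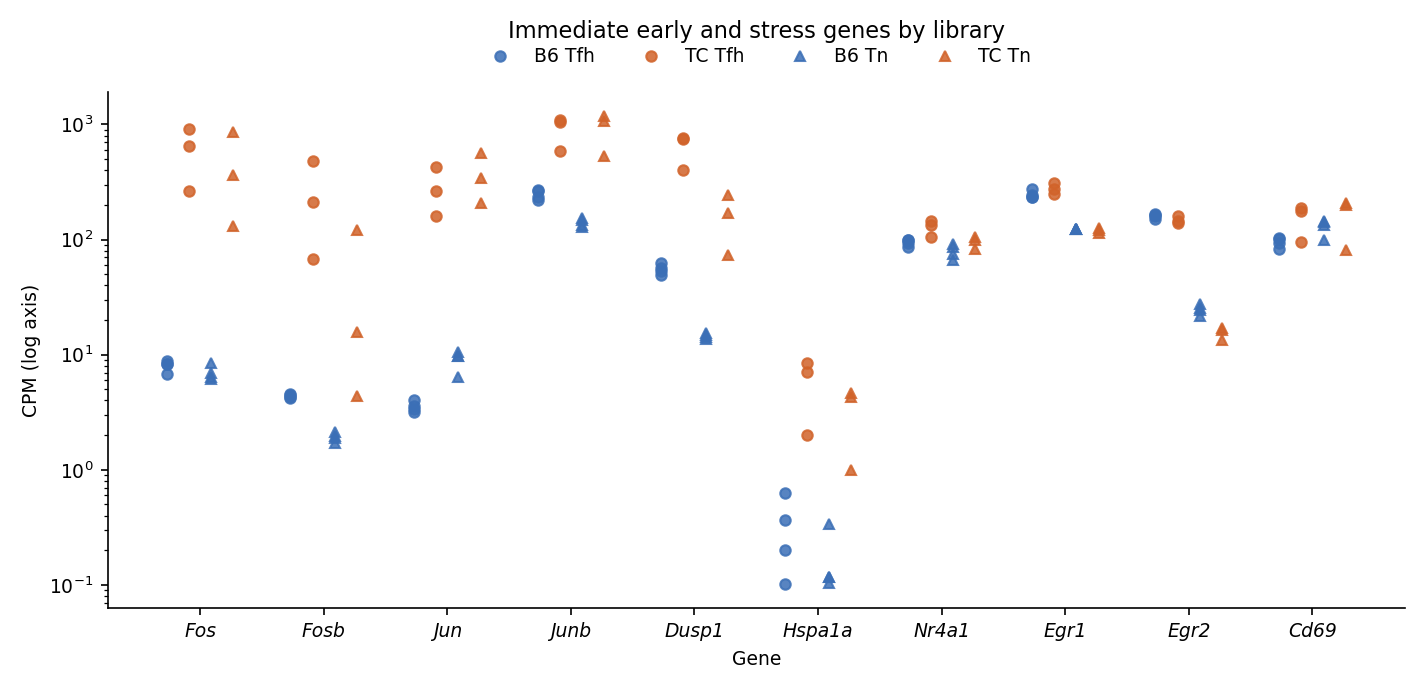
Levels of 10 immediate early and early activation genes in the 4 groups, in CPM on a log axis. Points are single mice. Fos, Fosb, Jun, Junb, Dusp1 and Hspa1a lie above every B6 library in TC Tfh, and in TC Tn they lie above every B6 Tn library, although Fosb of TC mouse 4 is at 4.34 CPM against at most 2.13 there. In TC Tfh, Egr1 lies within or just above the B6 Tfh range, Nr4a1 above it and Egr2 within or just below it, and Cd69 is higher in only 2 of 3 TC Tfh libraries.

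Together the immediate early genes took 0.368 to 0.402% of counts in the B6 Tfh libraries and 0.586 to 0.953% in the TC libraries (exact permutation p = 0.0571, two-sided, the smallest possible). Naive cells of the same mice showed 16 rises and 3 falls among these genes, with a median of 0.45. The test of the difference between cell types did not call Fos (0.22, SE 0.96, adjusted p = 0.964 for the difference of the log2 fold changes) or Jun (0.96, SE 0.67, adjusted p = 0.586). Immediate early genes are also known to respond to the handling of tissue and cells, and the part of handling was not tested.

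Interferon-stimulated genes fell more often than they rose: 17 of 50 fell, 4 rose, and none was more than 2-fold apart (median log2 fold change -0.19). As a list they were called less often than all genes, at 42% against 49.7%. With the length offset 14 fell and 5 rose (median -0.13). Isg15, a ubiquitin-like protein gene induced by type I interferon, stood at 21.3, 27.1, 17 and 21.2 CPM in B6 and 13, 13.3 and 10.7 CPM in TC (log2 fold change -0.82, SE 0.16, adjusted p = 0.000743). Lgals3bp fell from 152, 179, 144 and 153 CPM to 111, 110 and 104 CPM (log2 fold change -0.53, SE 0.07, adjusted p = 1.07e-05), and Tor3a fell (log2 fold change -0.56, SE 0.08, adjusted p = 1.73e-05). Trim30a rose from 162, 174, 161 and 176 CPM to 204, 206 and 216 CPM (log2 fold change 0.31, SE 0.05, adjusted p = 6.37e-05). Herc6 was higher too (log2 fold change 0.34, SE 0.06, adjusted p = 0.000276). Without TC mouse 2 the falls of the list numbered 11, and those over all genes went from 3420 to 2843. The interferon-inducible p200 genes, DNA sensors and nuclear regulators, lie in a cluster on chromosome 1. Of 6 tested, 3 rose and none fell, and whether they differ from the interferon-stimulated list was not tested. Aim2, the DNA sensor of an inflammasome, stood at 75.4, 70.2, 71.5 and 72.9 CPM in B6 and 94.2, 109 and 105 CPM in TC (log2 fold change 0.51, SE 0.05, adjusted p = 1.72e-06). Ifi203 rose from 254, 283, 270 and 278 CPM to 340, 397 and 370 CPM (log2 fold change 0.44, SE 0.07, adjusted p = 3.47e-05). Mndal rose from 243, 258, 240 and 257 CPM to 306, 359 and 341 CPM (log2 fold change 0.43, SE 0.06, adjusted p = 1.58e-05). In all 3 every TC mouse was higher, while Mnda was not called (log2 fold change -0.45, SE 0.28, adjusted p = 0.197). Members of this family resemble each other closely, so reads could have been assigned to the wrong member.

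The SLAM family, whose genes also cluster on chromosome 1, held 2 rises and 3 falls among 8. Cd48 stood at 130, 141, 127 and 129 CPM in B6 and 72.1, 79.5 and 76.1 CPM in TC (log2 fold change -0.79, SE 0.05, adjusted p = 3.39e-09), and it encodes a ligand shared by several lymphocyte receptors. Cd84, needed for prolonged T cell to B cell contact, stood at 249, 231, 249 and 239 CPM in B6 and 329, 337 and 352 CPM in TC (log2 fold change 0.49, SE 0.05, adjusted p = 1.69e-06). The groups were apart in both, in opposite directions. Ly9 stood at 207, 247, 226 and 244 CPM in B6 and 240, 262 and 238 CPM in TC and was not called (log2 fold change 0.10, SE 0.06, adjusted p = 0.219), whereas it was with the length offset (log2 fold change 0.16, adjusted p = 0.0321).

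Genes of energy metabolism were mostly lower in TC Tfh. Of 31 glycolysis genes 18 fell and 4 rose (median log2 fold change -0.30). Ldha, which makes lactate from pyruvate, stood at 352, 438, 407 and 410 CPM in B6 and 211, 186 and 183 CPM in TC, and every TC mouse was far below every B6 mouse (log2 fold change -1.05, SE 0.08, adjusted p = 2.95e-08). Gpi1, the second enzyme of the pathway, stood at 391, 463, 425 and 457 CPM in B6 and 290, 269 and 286 CPM in TC (log2 fold change -0.62, SE 0.06, adjusted p = 5.86e-07). Other steps fell as well: Pgk1 (log2 fold change -0.65, SE 0.08, adjusted p = 4.29e-06), Eno1 (log2 fold change -0.60, SE 0.10, adjusted p = 0.000162) and Tpi1 (log2 fold change -0.52, SE 0.11, adjusted p = 0.00138). Gapdh (log2 fold change -0.33, SE 0.07, adjusted p = 0.000626) and Pkm (log2 fold change -0.35, SE 0.06, adjusted p = 8.8e-05) fell by less. Slc16a3, a lactate exporter gene, stood at 27.1, 30.6, 39.7 and 28.3 CPM in B6 and 20.1, 9.79 and 12 CPM in TC (log2 fold change -1.16, SE 0.21, adjusted p = 0.000347), and its relative Slc16a1 fell (log2 fold change -0.52, SE 0.07, adjusted p = 1.16e-05). Hk2, the inducible hexokinase, stood at 5.26, 6.14, 8.41 and 6.55 CPM in B6 and 3.71, 3.28 and 4.95 CPM in TC (log2 fold change -0.72, SE 0.20, adjusted p = 0.00557). Slc2a1, which encodes the glucose transporter GLUT1, stood at 46.2, 55.2, 61.5 and 50.7 CPM in B6 and 48, 39.4 and 42.4 CPM in TC, with overlap (log2 fold change -0.30, SE 0.09, adjusted p = 0.014). Its call was lost without B6 mouse 3 (log2 fold change -0.21, adjusted p = 0.0545), TC mouse 2 (log2 fold change -0.22, adjusted p = 0.0859) or TC mouse 4 (log2 fold change -0.27, adjusted p = 0.0547). The regulators Hif1a (-0.10, adjusted p = 0.426) and Myc (0.12, adjusted p = 0.392) were not called.

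The tricarboxylic acid cycle list held 21 falls and no rise among 34 genes (median -0.25). Mdh1, the cytosolic malate dehydrogenase, stood at 160, 170, 160 and 164 CPM in B6 and 105, 98.8 and 104 CPM in TC (log2 fold change -0.67, SE 0.05, adjusted p = 1.63e-08), and its mitochondrial counterpart Mdh2 fell less (log2 fold change -0.37, SE 0.05, adjusted p = 1.32e-05). Sdhb (log2 fold change -0.46, SE 0.06, adjusted p = 6.15e-06) and Sdhd (log2 fold change -0.45, SE 0.06, adjusted p = 8.59e-06), subunits of complex II, fell, but Sdhd was not called with offsets for length and GC (log2 fold change -0.09, adjusted p = 0.105). Nuclear genes of oxidative phosphorylation fell almost throughout, with 65 falls and 2 rises among 72 (median -0.40). Uqcr10 of complex III stood at 45.7, 52.6, 47.1 and 47.3 CPM in B6 and 32.9, 29.1 and 31.9 CPM in TC (log2 fold change -0.62, SE 0.06, adjusted p = 9.65e-07). Atp5o of the ATP synthase fell from 80.2, 92.2, 79.5 and 83.2 CPM to 60.8, 55.8 and 58.6 CPM (log2 fold change -0.52, SE 0.06, adjusted p = 1.52e-06). Neither had overlapping libraries. Ndufs5, on chromosome 4 (chr4:123712710-123718202), was the exception in size, at 6.23, 6.39, 6.79 and 5.41 CPM in B6 and 0.342, 0.316 and 0.43 CPM in TC (log2 fold change -4.06, SE 0.21, adjusted p = 2.63e-10). Summed, these genes took 0.556 to 0.629% of counts in B6 and 0.427 to 0.447% in TC. Of 7 genes of the mitochondrial genome, 2 fell: mt-Nd6 (log2 fold change -1.29, SE 0.25, adjusted p = 0.000408) and mt-Nd1 (log2 fold change -0.27, SE 0.09, adjusted p = 0.0213). The mt-Nd1 call was lost without B6 mouse 2 or 4 and without any of the 3 TC mice (log2 fold change -0.27 to -0.22). With the length offset the value was 0.07, adjusted p = 0.471. mt-Cytb (-0.15, adjusted p = 0.288) and mt-Nd4 (-0.13, adjusted p = 0.423) were not called.

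In these libraries the difference between strains moved with transcript length. With genes cut into 10 equal groups by exon length, the group of 1330 to 2122 bases had a median log2 fold change of -0.26, with 42.9% called lower and 10.3% higher. In the group of longest transcripts, from 9565 bases, the median was 0.18, with 6.76% lower and 45.7% higher. The same gradient held in Tn, with medians of -0.22 and 0.15. The median exon length of the oxidative phosphorylation genes was 1737 bases, against 4179 over all genes tested. The medians of glycolysis (4133) and the tricarboxylic acid cycle list (3959) were close to that of all genes. After an offset for length in each library, 41 of the 72 fell and 1 rose, with a median of -0.19. The same offset left 16 falls and 4 rises in glycolysis, 21 and 3 in the tricarboxylic acid cycle list, and for Ldha a log2 fold change of -0.99, adjusted p = 1.44e-08. Of 83 cytosolic ribosomal protein genes, 79 fell and 1 rose (median -0.48), and with the offset 69 fell and 2 rose (median -0.25). Their summed share was 3.59 to 4.73% of counts in B6 and 2.90 to 2.98% in TC. Rpl35a stood apart from its group, at 155, 216, 173 and 180 CPM in B6 and 37.6, 34.9 and 29.1 CPM in TC (log2 fold change -2.42, SE 0.12, adjusted p = 1.14e-09), and many ribosomal protein genes have processed copies that can share reads. Gm26917, annotated as a long noncoding RNA gene (chr17:39843013-39846341) and chosen after its values were seen, stood at 43.8, 55.7, 29.6 and 40 CPM in B6 and 295, 425 and 435 CPM in TC (log2 fold change 3.19, SE 0.29, adjusted p = 7.93e-06). It was higher in TC Tn as well (log2 fold change 2.53, adjusted p = 2.08e-05). Which RNA its reads came from was not tested. The part of RNA or library quality in the length gradient or in Gm26917 was not tested.

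**Figure D3:**
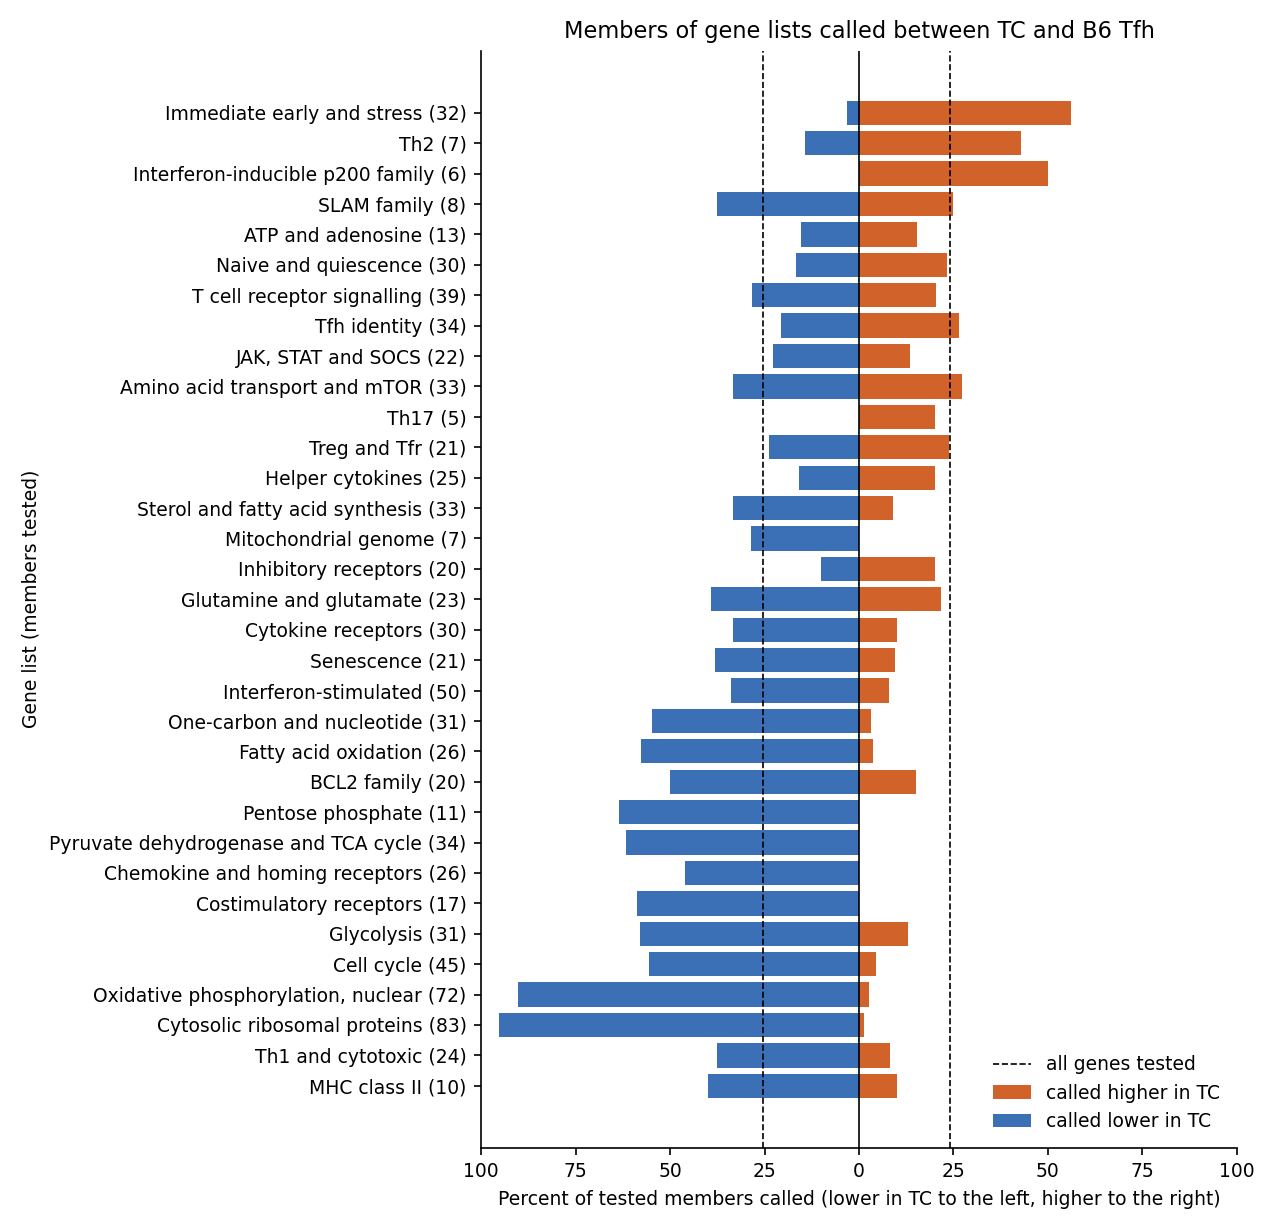
Percent of the tested members of each gene list called higher (right) and lower (left) in TC Tfh, on a linear axis, with dashed lines at 24.2% and 25.5% for all genes tested. Ribosomal proteins and oxidative phosphorylation extend furthest to the lower side, and the immediate early list furthest to the higher side.

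Fatty acid oxidation genes fell in 15 of 26, with 1 rise. Slc25a20, the carnitine carrier of the inner mitochondrial membrane, stood at 35.7, 39.8, 38.2 and 33.5 CPM in B6 and 23.9, 21.7 and 23.7 CPM in TC (log2 fold change -0.67, SE 0.08, adjusted p = 4.26e-06). Cpt1a, the gate of the pathway in most tissues, stood at 128, 161, 149 and 128 CPM in B6 and 107, 80.9 and 85 CPM in TC (log2 fold change -0.64, SE 0.14, adjusted p = 0.0018). Acaa2 (log2 fold change -0.62, SE 0.07, adjusted p = 2.41e-06) and Acadvl (log2 fold change -0.41, SE 0.06, adjusted p = 1.78e-05) fell. The single rise was large: Cpt1c, an isoform known mainly from neurons, stood at 3.59, 1.75, 4.54 and 2.55 CPM in B6 and 63, 51.9 and 59.8 CPM in TC (log2 fold change 4.23, SE 0.21, adjusted p = 3.15e-09). It lies on chromosome 7 (chr7:44959372-44974851), inside the 40 to 45 Mb region described below. Ppargc1b, a coactivator of mitochondrial genes chosen after its values were seen, rose (log2 fold change 0.81, SE 0.11, adjusted p = 2.32e-05).

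In sterol and fatty acid synthesis 11 of 33 genes fell and 3 rose. Cyp51 (log2 fold change -0.58, SE 0.08, adjusted p = 3.16e-05) and Ebp (log2 fold change -0.55, SE 0.09, adjusted p = 6.31e-05) of cholesterol synthesis fell. Elovl1, which lengthens fatty acids, fell (log2 fold change -0.45, SE 0.05, adjusted p = 3.93e-06). Hsd17b7, also of cholesterol synthesis, rose from 7.24, 6.74, 4.81 and 4.89 CPM to 11.1, 12.2 and 11.8 CPM (log2 fold change 0.98, SE 0.15, adjusted p = 4.73e-05). The glutamine list held 9 falls and 5 rises among 23. Slc1a5, the glutamine carrier ASCT2, stood at 290, 336, 320 and 342 CPM in B6 and 141, 135 and 131 CPM in TC, lower in every TC mouse (log2 fold change -1.25, SE 0.10, adjusted p = 2.74e-07). It lies on chromosome 7 (chr7:16781340-16798274). The glutathione peroxidase genes Gpx1 (log2 fold change -0.72, SE 0.08, adjusted p = 1.3e-06) and Gpx4 (log2 fold change -0.48, SE 0.08, adjusted p = 9.73e-05) fell. Glul, the glutamine synthetase, fell by less (log2 fold change -0.31, SE 0.05, adjusted p = 0.000116).

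Amino acid transport and mTOR genes were mixed, 9 higher and 11 lower of 33, or 7 lower without TC mouse 4. Rictor, a subunit of mTORC2, rose (log2 fold change 0.48, SE 0.08, adjusted p = 0.000166). So did Rps6kb1, the S6 kinase downstream of mTORC1 (log2 fold change 0.45, SE 0.05, adjusted p = 1.53e-06), and Irs2, an insulin receptor adaptor (log2 fold change 1.03, SE 0.14, adjusted p = 2.22e-05). Lamtor1 (log2 fold change -0.59, SE 0.06, adjusted p = 1.05e-06) and Rraga (log2 fold change -0.42, SE 0.06, adjusted p = 3.16e-05), which anchor mTORC1 on lysosomes, fell, the latter not with offsets for length and GC (log2 fold change -0.11, adjusted p = 0.139). Slc7a5, the large neutral amino acid carrier, fell (log2 fold change -0.54, SE 0.09, adjusted p = 0.000173). Ddit4, an inhibitor of mTORC1 induced by stress, stood at 262, 361, 283 and 288 CPM in B6 and 137, 98.4 and 138 CPM in TC (log2 fold change -1.26, SE 0.27, adjusted p = 0.0024), lower in every TC mouse. Deptor, another mTOR inhibitor gene, was low in both strains and rose, at 0.658, 0.25, 0.47 and 0.364 CPM in B6 and 1.43, 0.758 and 1.08 CPM in TC (log2 fold change 1.31, SE 0.34, adjusted p = 0.00399).

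One-carbon and nucleotide synthesis genes fell in 17 of 31, with 1 rise. Ppat, the first step of purine synthesis (log2 fold change -0.46, SE 0.06, adjusted p = 6.85e-06), and Mthfd2, a mitochondrial folate enzyme (log2 fold change -0.43, SE 0.07, adjusted p = 6.42e-05), were lower. So were Pnp of purine salvage (log2 fold change -0.47, SE 0.06, adjusted p = 1.57e-05) and Umps of pyrimidine synthesis (log2 fold change -0.37, SE 0.06, adjusted p = 7.55e-05). All 7 called genes of the 11 pentose phosphate genes fell. Pgls stood at 44.2, 46.3, 42.7 and 43.6 CPM in B6 and 32.7, 29 and 30.2 CPM in TC (log2 fold change -0.53, SE 0.06, adjusted p = 2.48e-06). Tkt, Taldo1 and Prps1 had log2 fold changes of -0.47 (SE 0.05, adjusted p = 3.43e-06), -0.47 (SE 0.07, adjusted p = 2.52e-05) and -0.48 (SE 0.08, adjusted p = 0.00015). Among 13 genes of extracellular ATP and adenosine, 2 rose and 2 fell. P2rx7, the ATP receptor that limits Tfh numbers in the gut, stood at 364, 340, 317 and 365 CPM in B6 and 346, 365 and 384 CPM in TC and was not called (log2 fold change 0.08, SE 0.08, adjusted p = 0.43). Adora2a, the adenosine receptor, rose slightly (log2 fold change 0.22, SE 0.06, adjusted p = 0.00376), and Enpp1 rose (log2 fold change 0.42, SE 0.12, adjusted p = 0.00728), the latter not with the length offset (0.25, adjusted p = 0.134). Panx1, an ATP release channel, fell (log2 fold change -0.32, SE 0.06, adjusted p = 0.000567).

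Cell cycle genes fell in 25 of 45, with 2 rises (median -0.34). Mcm2 of the replicative helicase stood at 76, 79.7, 77.9 and 80.7 CPM in B6 and 54.1, 55.3 and 56.3 CPM in TC (log2 fold change -0.51, SE 0.05, adjusted p = 3.26e-07). Cdk4, the kinase of G1, fell from 109, 122, 110 and 113 CPM to 82.2, 79 and 79.5 CPM (log2 fold change -0.50, SE 0.06, adjusted p = 3.17e-06). Mcm3, another helicase subunit, fell less (log2 fold change -0.31). Bub1b and Cdk1, genes of mitosis, were low in both strains. Bub1b of the spindle checkpoint stood at 9.11, 4.89, 5.85 and 8.47 CPM in B6 and 2.45, 2.59 and 1.94 CPM in TC (log2 fold change -1.61, SE 0.32, adjusted p = 0.000565). Cdk1, the kinase that starts mitosis, fell from 3.64, 4.19, 2.82 and 3.38 CPM to 1.43, 2.21 and 1.72 CPM, and Top2a fell by 0.43 on the log2 scale (adjusted p = 0.00373 and 0.00307). Mki67, the usual marker of proliferation, stood at 53.8, 36.3, 39.6 and 47.9 CPM in B6 and 44.3, 52 and 50.5 CPM in TC, with overlap, and was not called (log2 fold change 0.14, SE 0.13, adjusted p = 0.399). Genes of 3 cell cycle inhibitors were lower, of which the second and the third were chosen after their values were seen. Cdkn2c, which encodes p18, on chromosome 4 (chr4:109660876-109667189), stood at 25.6, 23.3, 21.9 and 22.4 CPM in B6 and 12, 8.65 and 10.3 CPM in TC (log2 fold change -1.17, SE 0.11, adjusted p = 4.5e-07). Cdkn1a, the p21 gene, stood at 3.49, 3, 4.18 and 3.43 CPM in B6 and 2.45, 0.884 and 0.86 CPM in TC (log2 fold change -1.32, SE 0.29, adjusted p = 0.00128). Cdkn2a, a marker of senescence, stood at 0.709, 0.899, 0.993 and 1.61 CPM in B6 and 0.285, 0.126 and 0.161 CPM in TC, near the counting limit in TC (log2 fold change -2.41, SE 0.47, adjusted p = 0.00103). Of 21 senescence genes 8 fell and 2 rose. Rb1, the retinoblastoma gene, rose (log2 fold change 0.40, SE 0.07, adjusted p = 0.000171), and Glb1, the lysosomal beta-galactosidase gene, fell (log2 fold change -0.35, SE 0.07, adjusted p = 0.000456).

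In the BCL2 family 10 of 20 genes fell and 3 rose. Bcl2l11, which encodes the death factor BIM, stood at 29.5, 36.8, 32.6 and 40.9 CPM in B6 and 49.9, 54.3 and 49.1 CPM in TC (log2 fold change 0.55, SE 0.09, adjusted p = 6.58e-05). Mcl1, a survival factor, stood at 492, 485, 528 and 511 CPM in B6 and 396, 403 and 352 CPM in TC (log2 fold change -0.39, SE 0.06, adjusted p = 0.000103). Cflar, the brake on caspase-8, rose (log2 fold change 0.35, SE 0.06, adjusted p = 0.000106). With the length offset 4 of the family rose and 4 fell. Bcl2 itself stood at 155, 127, 169 and 127 CPM in B6 and 140, 142 and 172 CPM in TC and was not called (log2 fold change 0.07, SE 0.11, adjusted p = 0.632). Bmf, another death factor gene, fell (log2 fold change -1.39, SE 0.40, adjusted p = 0.0129), but its call was lost without TC mouse 2 (log2 fold change -1.18, adjusted p = 0.057).

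Transcripts of other cell types were mostly scarce. Of 19 listed myeloid and dendritic genes only 7 had enough counts to be tested, of which 6 fell and none rose. Lyz2 and S100a9 were tested only because of their counts in B6 libraries. They had 4 and 0 counts in all TC Tfh libraries together, so a fall was the only call open to them. Lyz2, the lysozyme of macrophages and neutrophils, stood at 8.3, 8.74, 1.51 and 1.56 CPM in B6 and 0.114, 0.0631 and 0.0538 CPM in TC (log2 fold change -5.91, SE 1.13, adjusted p = 0.000969), high in B6 mice 1 and 2 and below 3 counts in each TC mouse. S100a9 of neutrophils had no count in TC and stood at 1.21, 4.39, 0.157 and 0.312 CPM in B6. Ctss, a cathepsin that T cells also express, fell from 277, 281, 284 and 261 CPM to 186, 175 and 174 CPM (log2 fold change -0.63, SE 0.07, adjusted p = 3.46e-06). Plasma cell genes fell in 6 of 12, and in 2 or 3 without B6 mouse 3, TC mouse 2 or TC mouse 4. Jchain, of secreted antibody polymers, stood at 15.7, 13.1, 6.53 and 5.25 CPM in B6 and 3.25, 3.03 and 1.61 CPM in TC (log2 fold change -1.96, SE 0.48, adjusted p = 0.00515). Ighg2b fell too (log2 fold change -4.54, SE 1.07, adjusted p = 0.00435). Sdc1, another plasma cell gene, was not lower, at 0.312 to 0.899 CPM in B6 and 0.631 to 0.856 CPM in TC. Among 9 B cell genes Ighd rose, with overlap, from 48.9, 40, 56.8 and 43.8 CPM to 96.5, 52.3 and 90.7 CPM (log2 fold change 0.76, SE 0.18, adjusted p = 0.00461), and Cd22 fell (log2 fold change -0.66, SE 0.16, adjusted p = 0.00385). Spib rose (log2 fold change 1.56, SE 0.47, adjusted p = 0.0125), a call lost without TC mouse 1 (log2 fold change 1.05, adjusted p = 0.103). Of 10 MHC class II pathway genes 4 fell and 1 rose, with 1 or 2 falls without B6 mouse 1 or 2 or TC mouse 2 or 4. They were led by H2-DMa (log2 fold change -0.61, SE 0.07, adjusted p = 2.19e-06) and H2-Ob (log2 fold change 0.76, SE 0.13, adjusted p = 0.000333). The part of these cells in the differences between strains was not tested.

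A few genes were close to on or off between the strains. Positions are given in GRCm38 from the GENCODE M21 annotation. Mtus1 on chromosome 8 (chr8:40990914-41133726), which encodes a microtubule-associated protein, stood at 0.354, 0.599, 0.679 and 0.78 CPM in B6 and 82.7, 86.1 and 81.9 CPM in TC, the smallest adjusted p of the table (log2 fold change 7.10, SE 0.11, adjusted p = 8.29e-18). Adgra2 on the same chromosome (chr8:27085583-27123436), an adhesion receptor gene, stood at 0.101, 0, 0.104 and 0.104 CPM in B6 and 23.9, 28.9 and 19.6 CPM in TC (log2 fold change 8.17, SE 0.33, adjusted p = 2.24e-11). Cyp4f18, also there (chr8:71988482-72009626) and the gene of an enzyme that oxidises leukotriene B4, stood at 0.0506, 0.15, 0.0522 and 0.208 CPM in B6 and 37.3, 85.8 and 23.5 CPM in TC (log2 fold change 8.64, SE 0.71, adjusted p = 3.38e-06). In these 3 genes the B6 levels were below 1 CPM in every mouse. Emid1 on chromosome 11 rose with a log2 fold change of 5.22 and Hpcal4 on chromosome 4 with 5.60. Tex35 (4.65) and Syt14 (4.45), both on chromosome 1, completed the 10 largest rises with Fos, Fosb and Jun. Zfp868 on chromosome 8 stood at 23.7, 28.2, 26.4 and 25.2 CPM in B6 and 86.4, 86.2 and 92.7 CPM in TC (log2 fold change 1.77, SE 0.06, adjusted p = 1.6e-12). Scg5 on chromosome 2, which encodes a chaperone of neuroendocrine cells, rose from 3.09, 3.59, 2.82 and 3.22 CPM to 34.7, 44.8 and 37.5 CPM (log2 fold change 3.61, SE 0.14, adjusted p = 3.61e-11).

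Cobl on chromosome 11 (chr11:12236608-12464960), an actin nucleator gene, stood at 8.5, 6.49, 10.2 and 5.77 CPM in B6 and had no count in any TC mouse, at least 134-fold lower against a floor of 3 counts over the group. Eps8l1 on chromosome 7 (chr7:4460674-4480487) stood at 49.9, 58.5, 53.8 and 65.8 CPM in B6 and 0.0571, 0.253 and 0 CPM in TC (log2 fold change -9.11, SE 0.52, adjusted p = 1.26e-07). Htatip2 (chr7:49759115-49773975) stood at 27.4, 29.5, 28.3 and 29.2 CPM in B6 and 0.856, 0.316 and 0.215 CPM in TC (log2 fold change -5.93, SE 0.19, adjusted p = 3.58e-13). Ptpn5 (chr7:47077795-47133684), a tyrosine phosphatase gene, stood at 130, 112, 133 and 118 CPM in B6 and 1.94, 5.37 and 3.23 CPM in TC (log2 fold change -5.15, SE 0.17, adjusted p = 3.84e-11). Both lie on chromosome 7 too, between 45 and 50 Mb. Tceanc2 on chromosome 4 (chr4:107134155-107179116) stood at 39.1, 40, 40.6 and 40.4 CPM in B6 and 3.14, 2.27 and 2.85 CPM in TC (log2 fold change -3.85, SE 0.09, adjusted p = 8.21e-15). Klk1b27, a kallikrein with close paralogs (log2 fold change -4.02), Bcam (-3.13) and Rasgrf2 (-3.35) completed the 10 largest falls with Lyz2 and Ndufs5. Ftl1, the ferritin light chain on chromosome 7, stood at 184, 232, 209 and 204 CPM in B6 and 64.4, 63.3 and 64.7 CPM in TC (log2 fold change -1.69, SE 0.07, adjusted p = 1.99e-11). Ifi30, a lysosomal thiol reductase on chromosome 8, fell from 34, 43.5, 37.3 and 40 CPM to 6.91, 6.12 and 8.06 CPM (log2 fold change -2.45, SE 0.11, adjusted p = 4.25e-11). Tspan13 on chromosome 12 fell from 266, 296, 261 and 285 CPM to 114, 116 and 110 CPM (log2 fold change -1.29, SE 0.06, adjusted p = 1.11e-10).

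Calls were spread over all chromosomes, at 52.3% of tested genes on chromosome 1, 50.1% on chromosome 4, 57.3% on chromosome 7 and 48.6% elsewhere. Large differences were more concentrated. Genes called and more than 2-fold apart made up 11.7% on chromosome 1 (98 of 839), 10.7% on chromosome 7 (108 of 1005), 6.23% on chromosome 4 (49 of 786) and 5.35% on the others together (564 of 10551). Among these others chromosomes 13 (8.87%), 2 (8.08%), 14 (7.51%), 18 (7.05%), 8 (6.57%) and 12 (6.52%) were above chromosome 4. On chromosome 14, 28 of the 41 lay from 50 to 55 Mb, all of them T cell receptor segments except Rem2. On chromosome 12, 9 of the 30 lay from 110 to 115 Mb, immunoglobulin segments among them. Counted in windows of 5 Mb with at least 10 tested genes, the median window had 4.88% of genes called and more than 2-fold apart. In 24 of 402 windows the share was 20% or more. Of these windows 7 were on chromosome 1, 5 on chromosome 7, 3 on chromosome 13, 2 each on chromosomes 4 and 8, and 1 each on 5 others. On chromosome 7, 15 of 49 genes from 40 to 45 Mb and 19 of 63 from 45 to 50 Mb were called and more than 2-fold apart. On chromosome 4 it was 5 of 14 from 100 to 105 Mb. The bounds of the congenic intervals are not in the sources used here, so no gene is placed inside or outside them.

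The window with the highest share of called genes was not on those chromosomes. On chromosome 13 from 110 to 115 Mb, 17 of 20 genes (85%) were called and 7 were more than 2-fold apart. Snx18, a membrane-remodelling protein gene, stood at 50.8, 47.4, 46.7 and 43.1 CPM in B6 and 25.7, 28.2 and 25.5 CPM in TC (log2 fold change -0.83, SE 0.06, adjusted p = 4.44e-08). Esm1 fell from 16.9, 24.8, 16.7 and 18.8 CPM to 2.97, 3.47 and 1.13 CPM (log2 fold change -2.95, SE 0.32, adjusted p = 6.25e-06). A lipid phosphatase gene, Ppap2a, fell from 3.75, 3.24, 3.6 and 3.07 CPM to 1.08, 1.45 and 0.914 CPM (log2 fold change -1.57, SE 0.24, adjusted p = 7.75e-05). All 3 were lower in every TC mouse, whereas Gzma and Plk2, given above, lie in the same window and were higher.

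**Figure D4:**
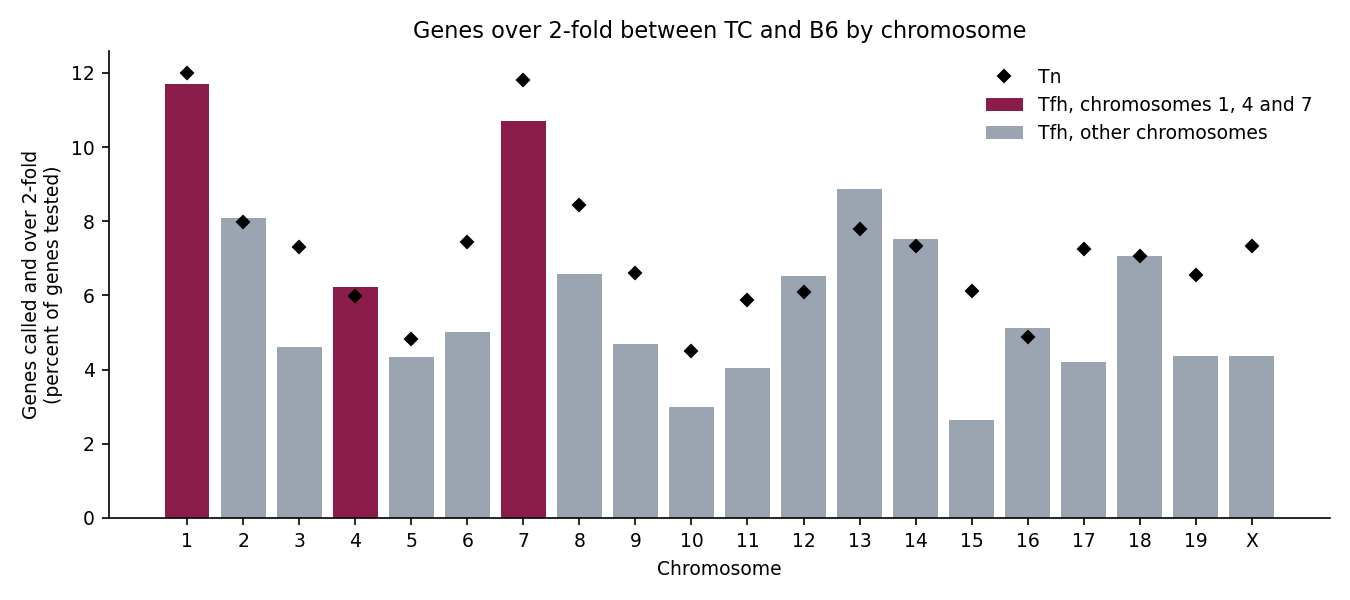
Percent of tested genes on each chromosome that were called and more than 2-fold apart between TC and B6, in Tfh (bars) and Tn (diamonds), on an axis from 0. Bars of chromosomes 1, 4 and 7 are in dark red. For Tfh, chromosomes 1 and 7, at 11.7% and 10.7%, stand highest among chromosomes 1 to 19 and X.

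Much of the strain difference was shared with naive cells of the same mice. In Tn 6982 genes were called (52.0%), and 1071 (7.98%) were also more than 2-fold apart. Called in both cell types were 5122 genes, 76.8% of the Tfh and 73.4% of the Tn calls, and 5072 of them had the same direction. Of the genes called and more than 2-fold apart, 519 were shared, 57.4% of those in Tfh and 48.5% of those in Tn. Tfh and Tn libraries of a mouse share that mouse, so the 2 comparisons are not independent. Tested directly, the strain difference itself differed between Tfh and Tn in 312 genes (2.32%), with 128 differences more positive in Tfh and 184 more negative. Of the 312, 45 were called between strains in Tfh alone, 103 in Tn alone, and 49 in both with opposite directions. Of 325 genes called and more than 2-fold apart in Tfh but not called in Tn, 12 were among the 312. With the mouse as a block the count was 736, and it ran from 159 to 344 with each library left out, so it depends on the setting.

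Igsf23 on chromosome 7, an immunoglobulin superfamily gene, rose in Tfh, at 4.61, 4.34, 3.29 and 3.69 CPM in B6 and 32.7, 35.4 and 25.5 CPM in TC (log2 fold change 2.96, SE 0.11, adjusted p = 7.56e-12), and by 0.34 in Tn. The difference between cell types was 2.62, SE 0.15, adjusted p = 1.3e-08. Lgmn, a lysosomal protease gene on chromosome 12, stood at 9.06, 8.79, 9.56 and 9.2 CPM in B6 and 64.6, 44.4 and 51 CPM in TC (log2 fold change 2.54, SE 0.11, adjusted p = 4.95e-11) and differed by 1.67, SE 0.15, adjusted p = 6.95e-06. Ptpn5, lower in TC Tfh, stood at 0.0515, 0.116, 0.175 and 0.0561 CPM in B6 Tn and 0.167, 0.191 and 0.167 CPM in TC Tn, where it was not called. These are 3 counts or fewer in every Tn library, so no fold in Tn, and no difference from Tn, is given for it.

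Opposite directions were found in Egln3, an oxygen sensor that marks HIF for decay. It fell in Tfh, at 58.4, 53.3, 61.2 and 57.6 CPM in B6 and 37.8, 28.5 and 30 CPM in TC (log2 fold change -0.84, SE 0.09, adjusted p = 1.04e-06). In naive cells it stood at 2.58, 2.43, 2.63 and 2.08 CPM in B6 Tn and 6.45, 5.4 and 5.74 CPM in TC Tn, a rise of 1.27 on the log2 scale. Glrx, a glutaredoxin gene, did the same (log2 fold change -1.14, SE 0.09, adjusted p = 4.7e-08 in Tfh, 0.42 in Tn), as did Sec16b on chromosome 1 (log2 fold change -1.62, SE 0.19, adjusted p = 3.73e-06 in Tfh, 1.93 in Tn). Ms4a6c fell in Tfh (log2 fold change -0.40, SE 0.10, adjusted p = 0.00461) and rose in Tn by 1.06, and its Tfh call was lost with the length offset (-0.19, adjusted p = 0.191).

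Several genes differed more in Tn. Arsb on chromosome 13, a lysosomal sulfatase gene, stood at 36.4, 36.8, 42.2 and 36 CPM in B6 and 24, 24.1 and 20.5 CPM in TC in Tfh (log2 fold change -0.73, SE 0.09, adjusted p = 4.34e-06) and fell by 3.11 on the log2 scale in Tn. Pglyrp1, a peptidoglycan-binding protein gene on chromosome 7, fell in Tfh (log2 fold change -0.75, SE 0.09, adjusted p = 7.74e-06) and by 3.64 in Tn, and Cpm in Tfh (log2 fold change -0.74, SE 0.12, adjusted p = 0.000151) and by 3.05 in Tn. Rgl1 stood at 4, 2.65, 2.72 and 2.18 CPM in B6 and 2.05, 3.16 and 3.55 CPM in TC, with overlap, and rose in Tn by 4.02. Inafm2 rose in both, by 0.66 in Tfh and 2.33 in Tn. Myo6 was called higher in Tfh by a small margin (log2 fold change 0.41, SE 0.16, adjusted p = 0.0406) and lower in Tn (-1.98), and leaving out B6 mouse 1, 3 or 4 or TC mouse 2 or 4 ended its Tfh call (log2 fold change 0.27 to 0.44). Gzma rose less in Tfh than in Tn, where it rose by 5.52 (difference -2.95, SE 0.36, adjusted p = 9.6e-05). For Bcl6 (0.20, SE 0.16, adjusted p = 0.631), Il21 (-1.26, SE 0.77, adjusted p = 0.506) and Cxcr5 (0.29, SE 0.24, adjusted p = 0.653) a difference between cell types was not called.

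**Figure D5:**
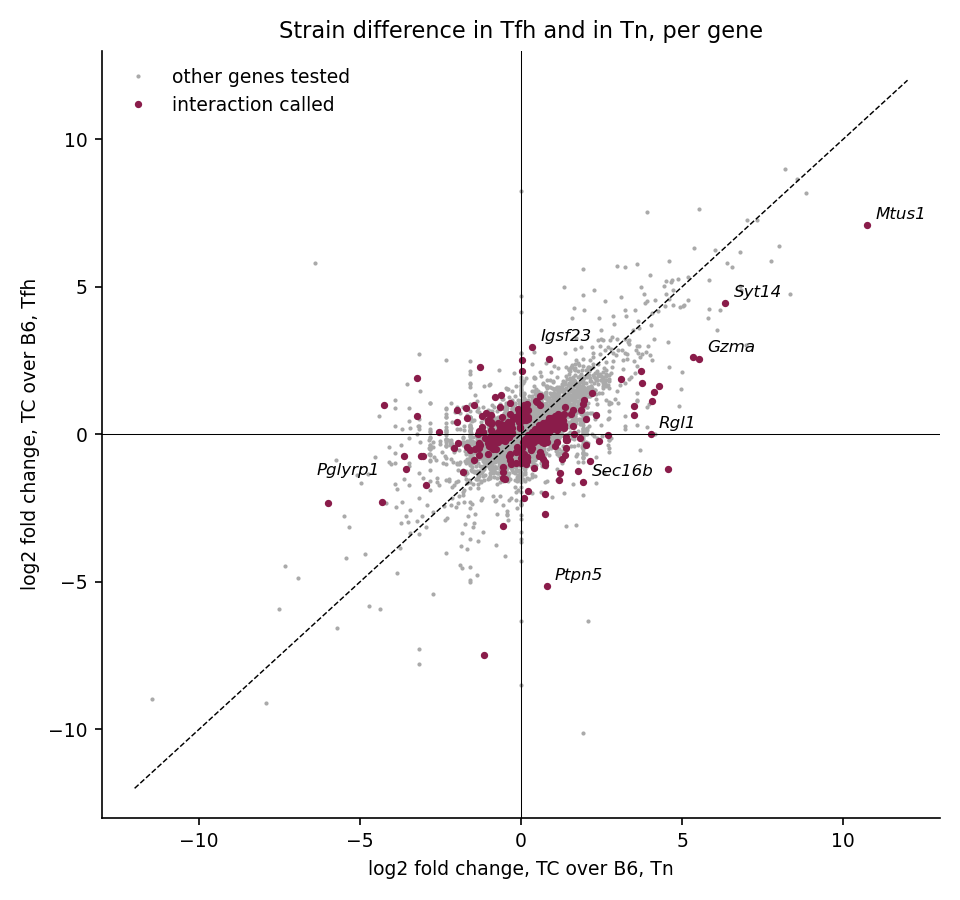
Log2 fold change of TC against B6 for each tested gene in Tn (x axis) and in Tfh (y axis), with the 312 genes whose change differed between cell types in dark red and the line of identity dashed. Most genes with large values lie along the line, and Ptpn5, Rgl1 and Mtus1 are among those far from it. Ptpn5 in all Tn libraries and Mtus1 in B6 Tn had 3 counts or fewer, so their places on the x axis are not measured folds.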

How the data were processed

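The deposited table holds read counts per gene symbol, 1 column per library, for 26683 symbols. Per the submitters' processing notes, the tools were STAR 2.7 and DESeq2 and the build was mm10. Libraries were stranded TruSeq, per the labels' protocols. Which tool counted reads, with which strand setting and annotation, is not given in the sources used here, so counts of overlapping, antisense and near-identical genes are uncertain. The reference is of the B6 strain, and no count was corrected for sequence differences of TC. For the Tn samples the source field says Tfh and the title says Tn, and the title was used.

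From these deposited counts, genes passing filterByExpr (count minimum 10; 13427 genes) were scaled by TMM. The model, in edgeR 4.0.16 under R 4.3.3, was a robust quasi-likelihood fit of 4 group means over all 14 libraries, without a block. Tn libraries thus add to the estimate of spread. Calls were made at an adjusted p below 0.05 (Benjamini-Hochberg). CPM use TMM-scaled library sizes, and shares of counts use plain totals. Floors of 3 counts cover counting error only. The code was tested on simulated data.

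The comparison, gene lists and tests were chosen with earlier results of these data known. Named are the 10 largest rises and falls without overlap and with a mean of at least 5 CPM, the 6 smallest adjusted p in each direction, up to 4 genes per list, 6 interaction genes each way, 4 genes of the window with most calls, and a set of Tfh and metabolic genes. Receptor segments, unnamed loci, pseudogenes and ribosomal proteins were left out of the first parts of that rule. A few genes that the rule names are not reported here. Named after their values were seen were Junb, Hspa1a, Nr4a1, Nr4a2, Nr4a3, Egr1, Egr2, Egr3, Cd69, Ier5, Tnfaip3, Isg15, Deptor, Ddit4, Rictor, Slc16a3, Slc7a5, Cdkn1a, Cdkn2a, Mki67, Top2a, Cdk1, Bub1b, Itgae, Ikzf2, Plk2, S100a9, Tigit, Lag3, Ccr2, Cxcr3, Maf, Tcf7, Eno1, Gapdh, Tpi1, Pkm, Bmf, Cd28, Cxcr4, Gpr183, S1pr2, Selplg, Hspa1b, Ppargc1b, Gm26917 and Bcl2.

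Tfh and Tn libraries with the same number come from 1 mouse, per the labels' protocols. The 4 B6 pairs deviated from their group means with correlations of 0.299, 0.114, 0.039 and 0.203, and the 3 TC pairs with 0.209, 0.207 and 0.257. Between strains the numbers mark different mice. No 2 libraries of a group looked like duplicates, since chi-square per degree of freedom was 5.67 to 20.3.

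Alternatives were DESeq2 1.42.0, limma 3.58.1 voom with mouse as a random effect (consensus correlation 0.225), RLE factors, TMM without receptor and mitochondrial genes or without chromosomes 1, 4 and 7, other filters, the legacy fit, the compared groups alone, a fold above 1.5, a block, each library left out, and, added after seeing the data, offsets for exon length and GC, each a spline with 5 degrees of freedom. Positions and lengths came from GENCODE M21. By symbol 24787 matched, 626 by synonym, 4 ambiguously and 1266 not, and 13181 tested genes (98.2%) had a length.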

Additional observations from a re-analysis of the deposited data

Results flagged for a closer look

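In a few named genes or shares 1 of the 4 B6 Tfh mice stood far from the other 3, by a rule that chance meets in about 1 of 20 groups. With 249 named genes such a rule flags several groups by chance, so a flag alone does not set a mouse apart. B6 mouse 2 had the highest Trdc at 37.8 CPM against 2.38 to 4.34 in the others, the highest Tcrg-C2 at 2.95 CPM against 0.627 to 0.988, and the highest share of gamma delta and NKT markers at 0.00685% of counts against 0.00169 to 0.00216%. Its share of oxidative phosphorylation genes was 0.629% against 0.556 to 0.565%. It had 0 CPM of Adgra2 against 0.101 to 0.104, all below the level of 3 counts. B6 mouse 3 had 42.2 CPM of Arsb against 36 to 36.8 and 254 CPM of Ctla4 against 219 to 224. B6 mouse 4 had 1120 CPM of Dgkz against 965 to 982 and 29.6 CPM of Eomes against 12.5 to 14.5. TC groups, with 3 mice, were not examined this way.

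For 29 named genes the strain difference in Tfh differed from that in Tn (interaction at an adjusted p below 0.05 by edgeR). Values are the Tfh minus the Tn log2 fold change. It was positive for Igsf23 (2.62), Lgmn (1.67), Pglyrp1 (2.89), Myo6 (2.38), Arsb (2.38), Cdkn2c (2.40), Cpm (2.31), Cd74 (1.64), Bcl2 (0.99), Nsg2 (0.59), Egr2 (0.55), mt-Nd1 (0.53), Slc16a1 (0.37) and Mcm2 (0.28). Apart from Igsf23 and Lgmn, these reflect a fall in Tn that was larger than in Tfh, or not matched there. Bcl2, for example, fell in Tn by 0.92 on the log2 scale and had a log2 fold change of 0.07 in Tfh. It was negative for Ptpn5 (-5.94, with 3 counts or fewer in every Tn library, so not a measured fold), Rgl1 (-4.01), Mtus1 (-3.65, with 3 counts or fewer in each B6 Tn library), Sec16b (-3.55), Gzma (-2.95), Egln3 (-2.11), Syt14 (-1.89), Inafm2 (-1.67), Glrx (-1.56), Ms4a6c (-1.46), Tspan13 (-0.71), Cyp51 (-0.54), Cd6 (-0.49), Adora2a (-0.36) and Cd9 (-0.30). Cd6, Cd9, Cyp51 and Tspan13 fell more in Tfh than in Tn. Cd6, for example, had a log2 fold change of -0.05 in Tn and -0.54 in Tfh.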

How the results depend on the processing

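No call rate of the main comparison moved by more than 1.5 times except under a fold above 1.5, where 577 genes were called in Tfh, 412 higher and 165 lower, 809 in Tn and 39 for the interaction. DESeq2 called 6477 genes in Tfh and voom 6732. Leaving out each library gave 5860 to 6549 calls in Tfh (3014 to 3426 higher, 2843 to 3123 lower) and 5999 to 6816 in Tn. The length offset gave 5925, of which 5005 were shared with the same direction. The interaction moved more, with 535 calls by DESeq2, 580 by voom, 159 to 344 with each library left out and 736 with the mouse as a replicate block. For Tfh the block used the replicate number across strains, which pairs different mice, and gave 5146 calls; same-numbered Tfh libraries of the 2 strains correlated at 0.031, 0.106 and -0.042. Called shares on chromosomes 1, 4, 7 and the others were 38.4, 37, 44.3 and 35.3% at an adjusted p below 0.01, and 7.51, 5.09, 8.76 and 3.15% with a fold above 1.5. With only the groups compared they were 46.3% on chromosome 4 and 45.4% on the others. With each library left out they ran from 44.6 to 53.3, 43.6 to 50.2, 50.8 to 55.1 and 42 to 48%. Of 249 named genes 211 were called, and 150 of these lost the call in at least 1 alternative, all 150 under a fold above 1.5 and 36 of them under another alternative as well. Length correction took the call from 15, and length and GC correction from 23, with the same sign. In mt-Nd1 both took the call and turned the sign, to 0.07 and 0.09, and it was the 1 called gene to do so. Depth limits genes below about 0.198 CPM, the level of 3 counts in the smallest library.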

Other observations

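Gene families examined after the main lists, chosen after seeing the data, give further values for TC against B6 Tfh. Of 46 proteasome genes 43 fell and 1 rose (median log2 fold change -0.33), with 32 falls after the length offset. Psmb8, a subunit of the immunoproteasome, stood at 348, 404, 352 and 363 CPM in B6 and 280, 265 and 262 CPM in TC (log2 fold change -0.45, SE 0.06, adjusted p = 9.73e-06). Of 75 mitochondrial ribosomal protein genes 53 fell and 5 rose (median -0.33), with 28 falls and 4 rises after the offset. Aminoacyl-tRNA synthetases, which charge tRNA with amino acids, were split, with 10 rises and 14 falls among 35.

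Of 142 T cell receptor segments 38 rose and 19 fell (median 0.15), and 28 were called and more than 2-fold apart. Together all 195 segments in the table took 0.429 to 0.488% of counts in B6 and 0.376 to 0.398% in TC. Segments resemble each other, so reads may have been assigned to the wrong one. Small nucleolar RNA host genes rose in 5 and fell in 2 of 9, Kruppel-like factors rose in 5 and fell in 2 of 12, and GIMAP GTPases, which support T cell survival, rose in 1 and fell in 4 of 8. Heat shock protein genes rose in 11 and fell in 16 of 62, so the rise of Hspa1a and Hspa1b did not extend to the family.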
